A study of Mus musculus with 23 samples.

Results

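The 10 genes described here encode the core enzymes of mitochondrial fatty acid beta-oxidation, taken by symbol from the 14651 genes measured in brown adipose tissue (BAT) of 23 mice. They were Cpt1a, Cpt1b, Cpt2, Acadvl, Acadl, Acadm, Acads, Hadha, Hadhb and Etfdh, and all 10 were in the table. The mice were male C57BL/6 animals of 8 to 12 weeks. All of them carried loxP sites around exon 2 of Mcu on both alleles (Mcu[fl/fl]), the gene of the mitochondrial calcium uniporter. The BAT-Mcu-KO mice, called knockout mice below, also carried Ucp1-Cre, in which the promoter of Ucp1 drives the recombinase, so that other cells of the tissue keep Mcu, and the control mice lacked Cre. The mice spent 6 h at room temperature (RT) or at 4°C, as control RT (n = 6), control 4C (n = 5), BAT-Mcu-KO RT (n = 6) and BAT-Mcu-KO 4C (n = 6). In the cold the cages held 1 mouse each and, by default, no food. Cage sharing and feeding of the RT mice during these hours are not given in the sources used here, so cold cannot be told apart from food removal or single housing.

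Brown adipocytes burn fatty acids to make heat. Long-chain acyl groups enter the matrix by the carnitine shuttle, in which CPT1 of the outer membrane makes acylcarnitine and CPT2 of the inner membrane turns it back into acyl-CoA. Each turn of the spiral then begins with an acyl-CoA dehydrogenase matched to the chain length, and is completed for long chains by the trifunctional protein. Electrons of the dehydrogenase step pass by way of the electron transfer flavoprotein (ETF) to its membrane-bound dehydrogenase and on to ubiquinone.

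Libraries held 7129271 to 21006347 counted reads, and levels below are normalized counts, that is, reads divided by the size factor of the library. Mcu itself was at 70.8 to 136 in the control mice and at 15.2 to 42.4 in the knockout mice, with no overlap between genotypes. All 14 brown adipocyte markers were read in every library, with a summed normalized count of 202400 to 393600. The 14 skeletal muscle markers varied widely, from a sum of 41.1 to 66110, and exceeded 10000 in 8 libraries, of which 3 were control 4C, 3 BAT-Mcu-KO RT and 2 BAT-Mcu-KO 4C. Muscle also uses these enzymes, and values without these 8 libraries are given beside the calls. That run keeps mice 1 and 3 of control 4C, mice 1, 2 and 5 of BAT-Mcu-KO RT and mice 3 to 6 of BAT-Mcu-KO 4C. In it, less muscle cannot be told apart from fewer mice. In bulk tissue, fewer cells of a type and less RNA per cell cannot be told apart.

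The 10 enzymes differed little between groups. In the main test Cpt2 and Acadm were lower in the cold in control mice, at 0.81 and 0.82 of their RT level. In knockout mice Acads was lower, at 0.87, and Etfdh was higher, 1.17-fold. Each of these calls was lost when some single mice were left out. Without the 8 libraries with high muscle markers only the Acads call stayed. Neither genotype nor the interaction gave a call. In control mice, 0 of 10 rose and 2 of 10 fell, where 22.3% of all 14651 genes rose and 23.7% fell (46% called in either direction). In knockout mice, 1 of 10 rose and 1 of 10 fell, where 21.4% of all genes rose and 21.9% fell (43.3% in either direction). The median size of the log2 fold change was 0.09 for the 10 enzymes and 0.45 for all genes in control mice, and 0.11 and 0.40 in knockout mice. These medians were not matched for expression: 9531 of all 14651 genes had a mean normalized count of 50 or more. A call here is an adjusted p under 0.05 from limma over all genes. With the libraries scaled to their 75th percentile the share of calls that were higher in the cold went from 48.5% to 38.2% in control mice, as the all-gene median of the log2 fold changes went from -0.02 to -0.13, and the same number of the 10 enzymes (2) was called there.

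**Figure D1:**
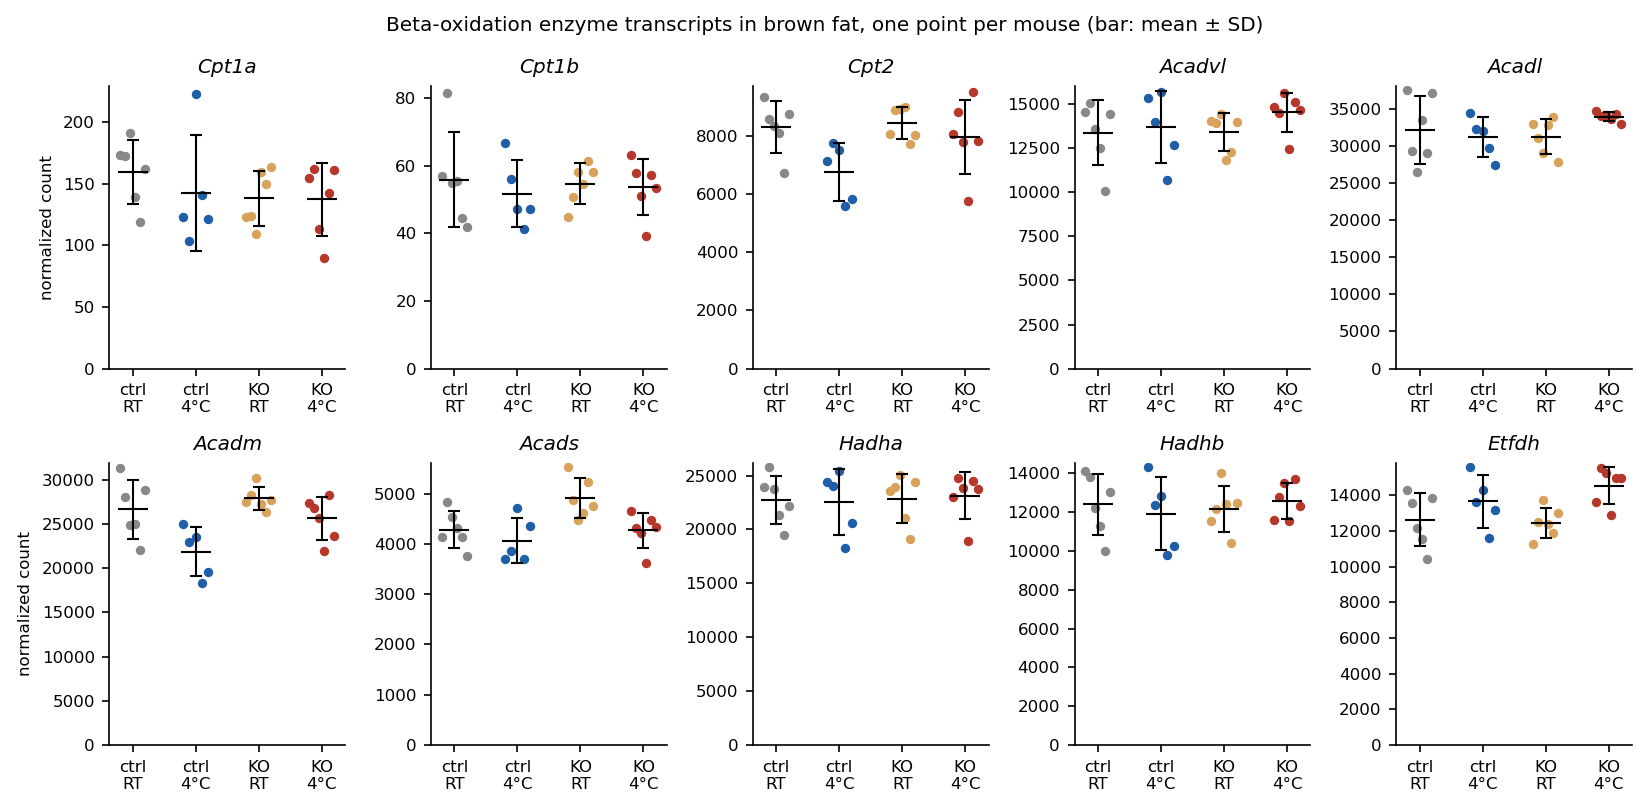
Normalized counts of the 10 enzymes in each of the 23 mice (y axis from 0 in every panel, on its own scale), by group on the x axis (ctrl, control; KO, BAT-Mcu-KO), with the mean and SD as a bar. RT and 4°C mice of a genotype overlap in every panel, as do the genotypes at each temperature, and Cpt2 and Acadm of the control 4C mice sit lowest, with means of 6759 and 21889.

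The CPT system was read at very unequal depth. Cpt1a, the liver-type form, had a lowest, median and highest normalized count of 119, 167 and 192 in control RT mice. The control 4C mice read 123, 103, 223, 141 and 121, so that 1 of 5 was above and 1 of 5 below every RT mouse. Knockout mice ranged from 109 over 137 to 164 at RT and from 89.6 over 149 to 162 at 4°C. Cold log2 fold changes were -0.20 ± 0.18 (SE; adjusted p = 0.39) in control and -0.03 ± 0.17 (adjusted p = 0.92) in knockout mice, which is within the spread between mice.

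Cpt1b, the muscle-type form, was lower still, at 41.7, 55.1 and 81.5 (lowest, median, highest) in control RT mice and at 66.8, 56.2, 47.3, 41.1 and 47.3 in the control 4C mice. Knockout mice had 44.9, 56.4 and 61.3 at RT and at 39.3, 55.4 and 63.1 at 4°C. All 4 groups overlapped, and the values rest on 32 to 96 reads per library. The cold log2 fold change was -0.09 (95% CI -0.45 to 0.26) in control and -0.03 (-0.37 to 0.31) in knockout mice.

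The Cpt1b level carries a limit of the gene models. On GRCm38, Cpt1b lies on the minus strand of chromosome 15 (89416405 to 89425863), and in GENCODE M21, a later release than the one used for counting, 81.4% of its exonic bases also belong to Gm44502, a locus that spans Cpt1b and its neighbour Chkb. Reads within exons of more than 1 gene may not have been counted for either, and the gene models of release M7 were not used here. Chkb, a choline kinase that shares 57.6% of its exonic bases, rose in the cold by 0.52 (adjusted p = 1.93e-05) in control and by 0.62 (adjusted p = 8.5e-07) in knockout mice on the log2 scale.

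The ratio of Cpt1b to Cpt1a did not differ between groups beyond the spread between mice. On the log2 scale it was -1.52 ± 0.32 (SD, n = 6) in control RT, -1.41 ± 0.58 (n = 5) in control 4C, -1.31 ± 0.23 (n = 6) in BAT-Mcu-KO RT and -1.32 ± 0.17 (n = 6) in BAT-Mcu-KO 4C mice. The differences were 0.11 by cold in control (p = 0.695, exact permutation test, two-sided), -0.01 by cold in BAT-Mcu-KO (p = 0.946, exact permutation), 0.20 by genotype at RT (p = 0.238, exact permutation) and 0.09 by genotype at 4°C (p = 0.747, exact permutation). Adjusted over these 4 comparisons, every p was 0.946.

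Cpt2, which releases acyl-CoA into the matrix, fell in the cold in control mice. Its normalized count was 6713, 8458 and 9336 (lowest, median, highest) in control RT mice and 7146, 7737, 7507, 5584 and 5819 in the control 4C mice, 2 of which were below every RT mouse. The fold was 0.811 (95% CI 0.693 to 0.949; log2 -0.30 ± 0.11, SE; adjusted p = 0.0274). In knockout mice it went from 7711, 8476 and 8975 at RT to 5772, 7941 and 9516 at 4°C, a log2 fold change of -0.10 (adjusted p = 0.488). The call in control mice was lost without control RT mouse 1 or control 4C mouse 4 or 5 (adjusted p up to 0.0969), and without the 8 libraries with high muscle markers it was -0.17 (adjusted p = 0.42), with 2 control 4C mice left.

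Among the acyl-CoA dehydrogenases, Acadvl, which starts the spiral on very long chains, was at 10074, 14037 and 15100 (lowest, median, highest) in control RT mice and at 15383, 14013, 15728, 10722 and 12696 in control 4C mice. Knockout mice had 11869, 13990 and 14441 at RT and 12452, 14791 and 15626 at 4°C, where 5 of 6 were above every RT mouse of that genotype. The cold log2 fold changes, 0.03 and 0.11, did not pass the test (adjusted p = 0.826 and 0.383). By M21, 42.9% of the exonic bases of Acadvl also belong to its neighbour Dvl2, a component of Wnt signalling.

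Acadl, the long-chain enzyme, had the highest level per exon length of the 10. It read 26419, 31374 and 37515 in control RT mice and 34476, 32242, 32057, 29679 and 27394 in control 4C mice, which lay inside the RT range. Knockout mice had 27802, 31934 and 33859 at RT and 32909, 34048 and 34685 at 4°C. In those cold mice the coefficient of variation was 1.83%, against 7.73% to 14.3% in the other groups. Cold log2 fold changes were -0.04 (95% CI -0.23 to 0.15) and 0.12 (-0.06 to 0.30).

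Acadm, the medium-chain enzyme, fell with Cpt2. Control RT mice had 22049, 26524 and 31314, and control 4C mice 24993, 22999, 23541, 18280 and 19631, with 2 of 5 below every RT mouse. The fold was 0.820 (95% CI 0.714 to 0.942; log2 -0.29 ± 0.10, SE; adjusted p = 0.0178). In knockout mice it went from 26414, 27644 and 30204 to 22001, 26249 and 28305, with 3 of 6 below every RT mouse and a log2 fold change of -0.13 (adjusted p = 0.286). The control call was lost without the same mice as that of Cpt2, control RT mouse 1 and control 4C mice 4 and 5 (adjusted p up to 0.0696), and in the fit of the 2 groups alone (adjusted p = 0.0695). Without the 8 libraries with high muscle markers the value was -0.13 (adjusted p = 0.527). That the fall differed between genotypes was not shown: the interaction was 0.16 ± 0.13 for Acadm (adjusted p = 0.888) and 0.20 ± 0.15 for Cpt2 (adjusted p = 0.873).

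The promoters of Acadm and Cpt2 are shown because these were the genes called in control mice. Sequences are from RefSeq (GRCm38.p6), 250 bases before to 50 after the start site, and 9 of the 10 genes matched; Cpt1b did not. Acadm is on the minus strand at chr3:153944594-153944893 and Cpt2 on the minus strand at chr4:107923540-107923839. Capitals mark the extended nuclear receptor motif AAGGTCA in Acadm and the GC box GGGCGG in Cpt2, on either strand.
Acadm: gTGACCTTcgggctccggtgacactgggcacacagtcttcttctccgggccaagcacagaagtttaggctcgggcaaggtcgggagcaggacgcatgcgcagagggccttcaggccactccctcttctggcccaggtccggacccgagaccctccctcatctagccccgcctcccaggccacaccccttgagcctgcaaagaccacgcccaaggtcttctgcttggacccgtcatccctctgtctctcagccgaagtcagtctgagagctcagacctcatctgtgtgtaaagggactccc
Cpt2: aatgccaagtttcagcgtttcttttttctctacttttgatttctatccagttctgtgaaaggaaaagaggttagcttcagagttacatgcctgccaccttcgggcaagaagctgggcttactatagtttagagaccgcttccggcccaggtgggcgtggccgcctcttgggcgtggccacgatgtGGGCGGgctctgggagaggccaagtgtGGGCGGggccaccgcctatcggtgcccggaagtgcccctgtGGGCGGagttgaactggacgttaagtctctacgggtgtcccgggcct
AAGGTCA was in 1 of 9 promoters, that of Acadm, read from the other strand near the far end of the window, and in 4.72% of 32851 mouse promoters. The GC box was in 7 of 9 (35.7% of all) and CCAAT in 2 of 9 (37.4%). The longer ERR site TCAAGGTCA, which holds that motif (0.423% of all), the direct repeat AGGTCANAGGTCA (0.0396%) and the cAMP response element TGACGTCA (1.79%) were in 0 of 9. A match here says only that the letters lie in these windows.

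Acads, the short-chain enzyme, fell in the cold in knockout mice. It went from 4481, 4813 and 5525 (lowest, median, highest) at RT to 3622, 4327 and 4650 at 4°C, with 5 of 6 cold mice below every RT mouse. The fold was 0.869 (95% CI 0.775 to 0.973; log2 -0.20 ± 0.08, SE; adjusted p = 0.0414). Control mice had 3758, 4228 and 4826 at RT and 3691, 3859, 4706, 3709 and 4351 at 4°C (log2 fold change -0.08, adjusted p = 0.461). The BAT-Mcu-KO call lay near the threshold: it was lost without any one of RT mice 1, 2, 5 and 6 or 4C mice 2, 3, 4 and 6 of that genotype (adjusted p up to 0.12) and in limma without the trend (0.0635). Without the muscle-rich libraries the value was -0.33 (adjusted p = 0.0432).

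Neither subunit of the trifunctional protein was called. Hadha, its alpha subunit with the hydratase and the dehydrogenase of long chains, was at 19525, 22961 and 25831 in control RT mice and at 24398, 24052, 25464, 18239 and 20587 in control 4C mice. Knockout mice had 19144, 23755 and 25007 at RT and 18915, 23801 and 24783 at 4°C. The groups overlapped almost completely, with cold log2 fold changes of -0.02 (95% CI -0.23 to 0.19) and 0.02 (-0.18 to 0.22). Hadhb, the beta subunit with the thiolase, was at 9987, 12610 and 14133 in control RT mice and at 14325, 12368, 12800, 9810 and 10271 in control 4C mice. In knockout mice it had 10390, 12262 and 14014 at RT and 11536, 12528 and 13709 at 4°C. Its cold log2 fold changes were -0.06 (95% CI -0.27 to 0.15) and 0.05 (-0.15 to 0.25).

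Hadha and Hadhb are read head to head on chromosome 5, with RefSeq start sites at 30154980 (minus strand) and 30155253 (plus strand), 273 bases apart. Their windows, chr5:30154931-30155230 and chr5:30155003-30155302, share 228 bases and are shown because both subunits are transcribed from them. Capitals mark the GC box on either strand, and the box of Hadha is the first of Hadhb read from the other strand.
Hadha: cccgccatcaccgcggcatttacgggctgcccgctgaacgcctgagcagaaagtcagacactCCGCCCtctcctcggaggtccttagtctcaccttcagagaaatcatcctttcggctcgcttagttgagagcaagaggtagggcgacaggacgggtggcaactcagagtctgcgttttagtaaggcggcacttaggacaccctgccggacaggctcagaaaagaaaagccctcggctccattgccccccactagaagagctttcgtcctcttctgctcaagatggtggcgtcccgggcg
Hadhb: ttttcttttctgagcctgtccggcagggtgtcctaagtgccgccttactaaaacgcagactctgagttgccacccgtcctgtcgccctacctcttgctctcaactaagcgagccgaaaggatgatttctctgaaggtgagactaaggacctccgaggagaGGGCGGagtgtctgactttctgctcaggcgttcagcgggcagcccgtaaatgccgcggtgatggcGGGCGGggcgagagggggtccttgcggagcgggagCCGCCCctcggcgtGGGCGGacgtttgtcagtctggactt
The 2 subunits varied together across mice: with group means removed, Pearson's r of their log2 levels was 0.823 over 23 mice. In each mouse both come from 1 library and share its size factor.

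Etfdh, which hands electrons from ETF to ubiquinone, was the only one of the 10 called higher. Levels in knockout mice went from 11243, 12419 and 13704 (lowest, median, highest) at RT to 12906, 14953 and 15541 at 4°C, with 4 of 6 cold mice above every RT mouse. The fold was 1.17 (95% CI 1.03 to 1.32; log2 0.22 ± 0.09, SE; adjusted p = 0.0357). Control mice had 10421, 12845 and 14278 at RT and 15563, 13619, 14306, 11577 and 13164 at 4°C (log2 fold change 0.11, adjusted p = 0.315). The call was lost without any one of RT mice 1, 2, 4 and 5 or 4C mice 2, 3, 5 and 6 of that genotype (adjusted p up to 0.0842). It was also lost without the trend (adjusted p = 0.0511), with 75th percentile scaling (adjusted p = 0.109) and without the muscle-rich libraries (0.29, adjusted p = 0.0836).

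**Figure D2:**
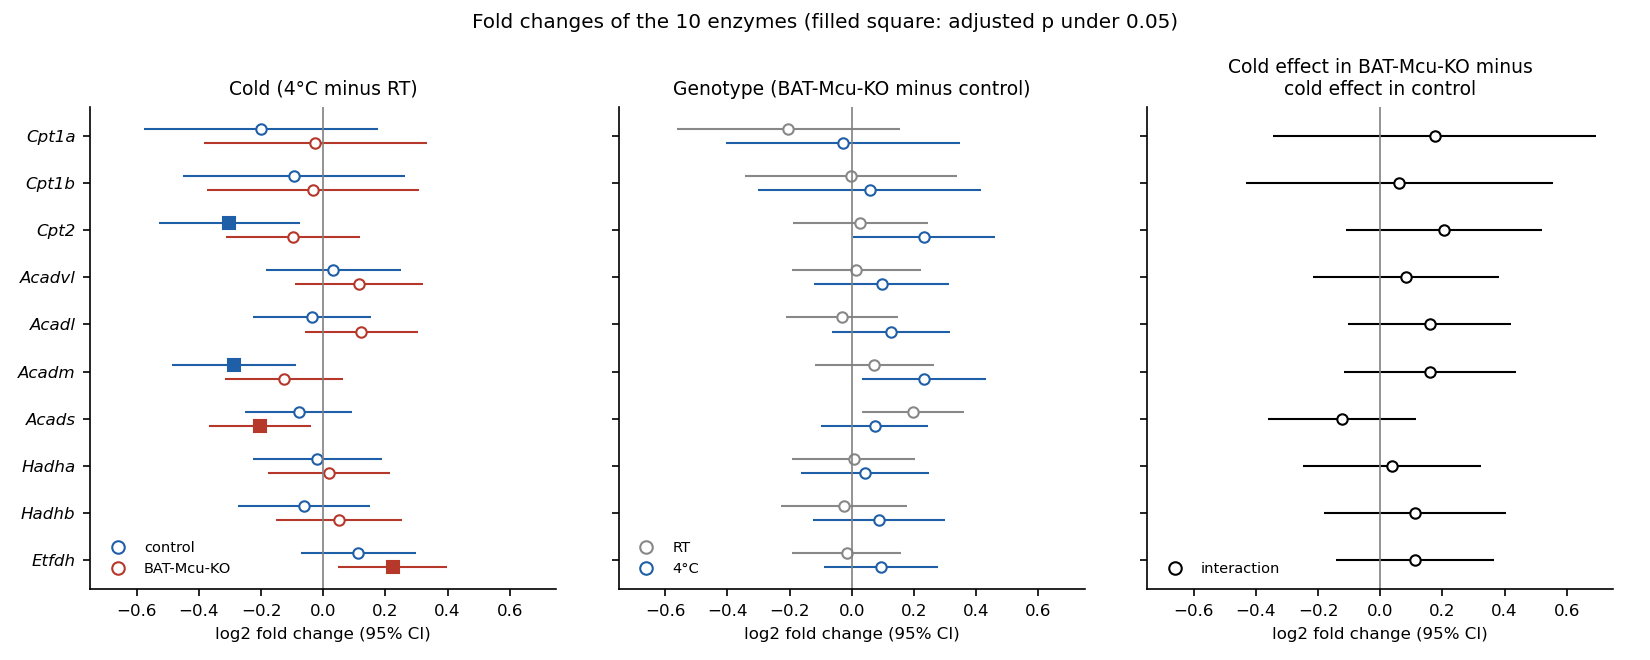
Log2 fold changes of the 10 enzymes with 95% confidence intervals (x axis) for cold in each genotype, for genotype at each temperature and for the interaction. Filled squares passed an adjusted p of 0.05: Cpt2 and Acadm in control mice, and Acads and Etfdh in knockout mice, all within 0.31 of 0.

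The BAT-Mcu-KO genotype left no call among the 10. The control mice lacked Cre, so loss of Mcu cannot be told apart from carrying Ucp1-Cre. At RT the log2 differences between BAT-Mcu-KO and control mice ran from -0.20 (Cpt1a) to 0.20 (Acads), and 0 of 10 passed, where 0.0478% of all genes did. At 4°C they ran from -0.03 (Cpt1a) to 0.23 (Acadm and Cpt2), and 0 of 10 passed, where 0.0751% of all genes did. Before adjustment, limma gave a p under 0.05 to 1 enzyme at RT (Acads) and to 2 at 4°C (Cpt2 and Acadm). Of all 14651 genes, 754 had such a p at RT and 1023 at 4°C. After adjustment, edgeR and DESeq2 also called 0 of 10 in both. At 4°C, 9 of the 10 differences were positive, with a median of 0.09 against 0.0064 over all genes. The signs are not independent, as most of the enzymes varied together across mice of a group. For Cpt2 at 4°C, all 6 knockout mice lay within or above the control range, 5 of them above every control mouse. Without the 8 muscle-rich libraries the 4°C differences of Cpt2 and Acadm were 0.05 and 0.03, and 6 of the 9 positive differences turned negative. Those values rest on control 4C mice 1 and 3 alone. The confidence intervals of Acadvl, Acadl, Hadha, Hadhb and Etfdh lay within 0.32 of 0 at both temperatures, those of Cpt1a and Cpt1b within 0.57. Before adjustment, intervals that left out 0 were those of Cpt2 (0.0046 to 0.46) and Acadm (0.03 to 0.43) at 4°C and of Acads (0.03 to 0.36) at RT.

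The interaction, the cold change in BAT-Mcu-KO minus that in control mice, ran from -0.12 (Acads) to 0.20 (Cpt2) and was called for 0 of 10. It was called for 0% of all genes, with 878 genes at an unadjusted p under 0.05 (0 of the 10), 0 called by edgeR and 28 by DESeq2, none of them one of the 10.

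Per kilobase of exon, the 10 enzymes fell into an upper set of 8 and a lower pair. In control RT mice Acadl led with 16031 ± 2297 normalized counts per kilobase (SD, n = 6), followed by Acadm (6820 ± 853), Acadvl (4988 ± 693), Cpt2 (3472 ± 369) and Hadha (2607 ± 255). Acads (1889 ± 163), Hadhb (1881 ± 240) and Etfdh (1683 ± 200) came next with overlapping ranges. Cpt1a (20.9 ± 3.4) was 80.6 times below Etfdh, with no overlap, and overlapped Cpt1b (16.6 ± 4.2). The same 8 were above the same 2 in every group, with Acadl first, while the order of Acads, Hadhb and Etfdh changed among groups within overlapping ranges. Exon length is the union of all M21 isoforms. Over bases that belong to no other gene, Acadvl would stand at 8728 and Cpt1b at 88.9, so Acadvl's place against Acadm and that of Cpt1b against Cpt1a turn with the length used. Reads of Cpt1b in exons shared with Gm44502 may not have been counted, and its low level carries that limit.

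**Figure D3:**
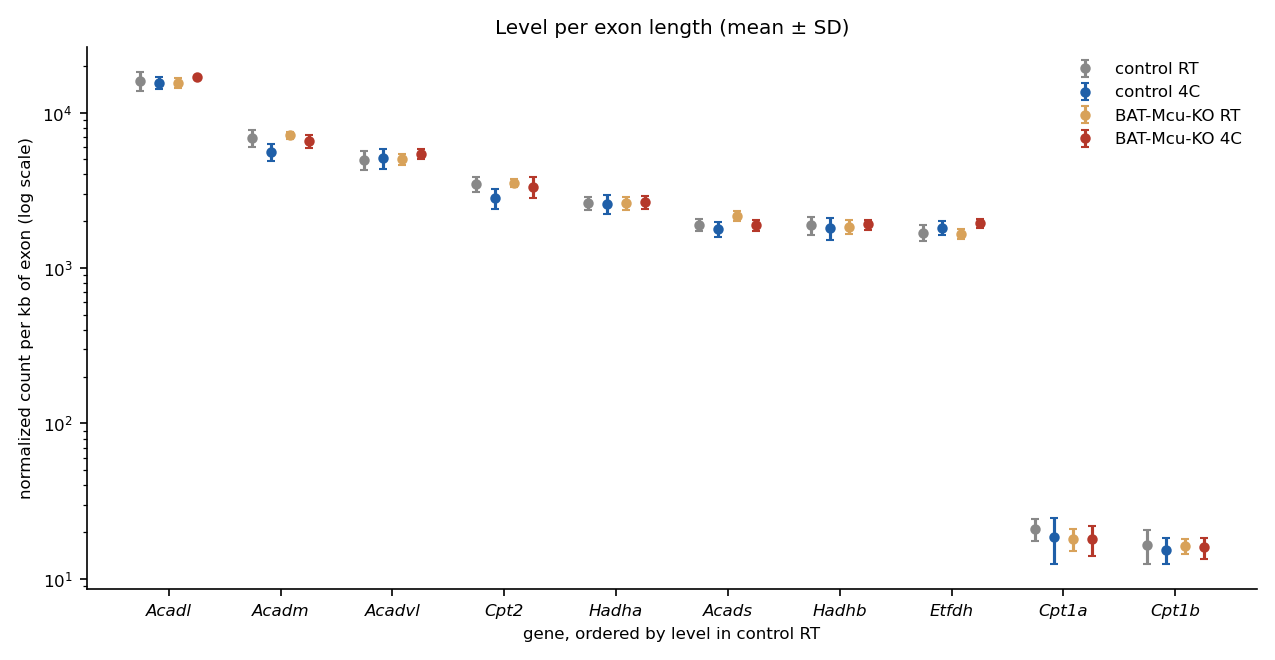
Normalized count per kilobase of exon (y axis, log scale) of the 10 enzymes in the 4 groups, as mean and SD over 5 or 6 mice. Acadl stands highest and Cpt1a and Cpt1b lie far below the other 8 in every group. Reads of Cpt1b in exons shared with another locus may not have been counted.

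Among mice of a group, most of the enzymes rose and fell together. Over the 45 pairs, r with group means removed (n = 23 mice) ran from -0.205 (Acadl and Acads) to 0.902 (Hadhb and Etfdh). Cpt2, Acadvl, Acadm, Hadha, Hadhb and Etfdh gave 0.727 or more in each pair among them. Acadl and Acads stood outside this set, as did the sparsely read Cpt1a and Cpt1b (r = 0.278 with each other). The genes outside the 10 nearest to Hadha in this measure were Aifm1 (r = 0.927), Hsdl2 (0.925) and Pdha1 (0.922); Pdha1 is a subunit of pyruvate dehydrogenase. With group means kept they were Gbe1 (0.879), Ndufs1 (0.879) and Aifm1 (0.869). For Cpt1a they were Athl1, Drg2 and Nr1h2 (0.727 to 0.713), or Tmem138, Nr1h2 and Arpc4 with means kept (0.667 to 0.666). For Cpt1b they were Gmps, Uxs1 and Abcd3 (0.883 to 0.775), or Papln, Opa1 and Acbd5 (0.73 to 0.67). These correlations describe libraries that share size factors and composition. With group means removed, r with log2 library depth ran from -0.4 (Hadhb) to 0.296 (Cpt1a), and with log2 summed muscle markers from -0.409 (Acadl) to 0.0292 (Cpt1b).

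Of 19 other spiral and auxiliary enzymes, 13 fell and 0 rose in control mice, where 23.7% of all genes fell, and 10 fell and 0 rose in knockout mice, where 21.9% did. The list also holds enzymes of amino acid breakdown, such as Acad8, so its counts and medians are not of fatty acid oxidation alone. Without the 8 muscle-rich libraries 6 fell and 0 rose in each genotype, where 16.3% and 14.6% of all genes fell. With all libraries the list had a median log2 fold change of -0.33 and -0.21 against -0.07 and -0.0035 for the 10 and -0.02 and -0.02 for all genes. The 4 most clearly lower were Acad12 (-1.36 in control, -1.32 in BAT-Mcu-KO) and Acad8, of valine breakdown (-0.85, -0.66), with Hadh, the soluble hydroxyacyl-CoA dehydrogenase (-0.55, -0.45), and Etfb, the beta subunit of ETF (-0.63, -0.50). The isomerase Eci1 (-0.41, -0.17), Hsd17b10 (-0.33, -0.12) and glutaryl-CoA dehydrogenase Gcdh (-0.25, -0.13) were called in control mice alone, though no interaction was called. In knockout mice, 6 of 6 cold mice were below every RT mouse for Eci1, 3 of 6 for Hsd17b10 and 5 of 6 for Gcdh. Etfa, the other ETF subunit, was at -0.04 and 0.09.

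**Figure D4:**
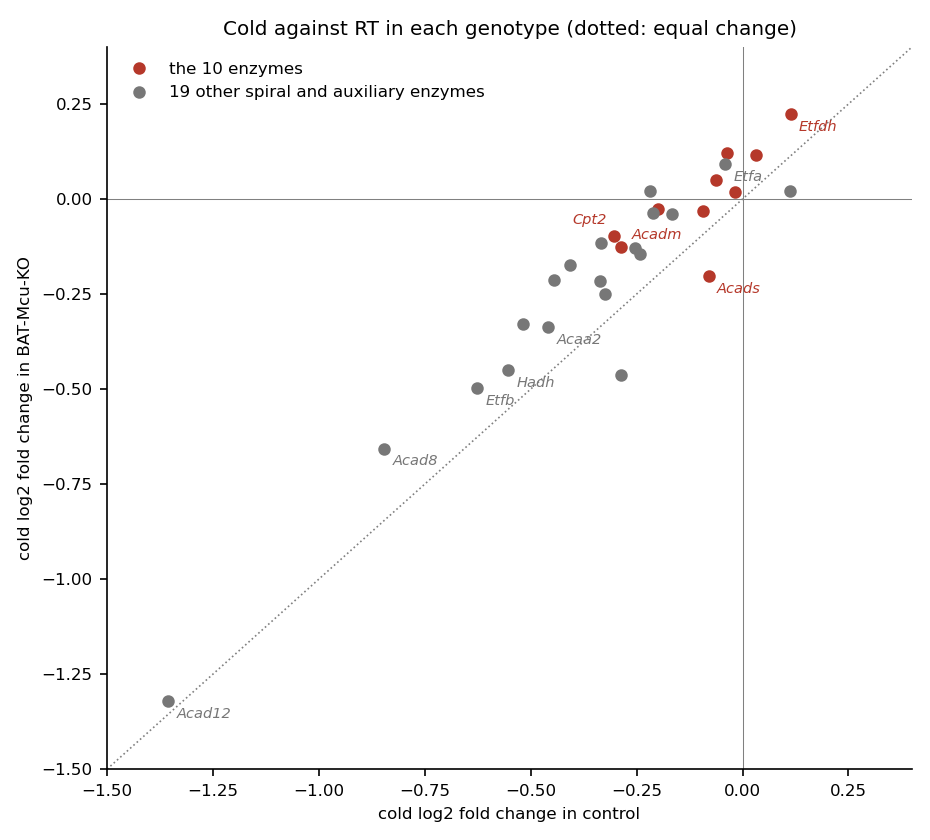
Cold log2 fold change in control mice (x axis) against that in knockout mice (y axis) for the 10 enzymes (red) and the 19 other spiral and auxiliary enzymes (grey), with a dotted line of equal change. The 10 lie within 0.31 of 0 on both axes, and the others reach -1.36.

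Hadha, Hadhb and Etfdh were also set against partner enzymes, as ratios within each mouse. These pairs were chosen after the values were seen, so the ratios are a description and carry no test. Hadh, Acaa2 and Echs1 work on shorter chains at the steps that Hadha and Hadhb carry out on long ones. The log2 ratio of Hadh to Hadha was -0.12 ± 0.12 (SD, n = 6) at RT and -0.65 ± 0.08 (n = 5) at 4°C in control mice, with all 5 cold mice below every RT mouse. In the knockout it was -0.18 ± 0.08 and -0.64 ± 0.09 (n = 6 each), again with no overlap. Acaa2, the soluble thiolase, against Hadhb stood 0.40 lower in the cold in control mice, with 4 of 5 below every RT mouse, and 0.39 lower in the knockout, with 6 of 6. Echs1, the soluble hydratase, against Hadha stood 0.32 lower (3 of 5) and 0.23 lower (5 of 6).

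For electron transfer, the ratios of the ETF subunits to Etfdh differed in size. Etfb against Etfdh stood 0.74 and 0.72 lower in the cold in control and knockout mice, with no overlap in either genotype. Etfa against Etfdh stood 0.15 and 0.13 lower, with 4 of 5 and 3 of 6 cold mice below every RT mouse. By M21, 58.2% of the exonic bases of Etfb also belong to other loci, and those of Etfa belong to no other gene. Without the 8 muscle-rich libraries all 10 ratio differences kept their sign, from -0.22 to -0.79.

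**Figure D5:**
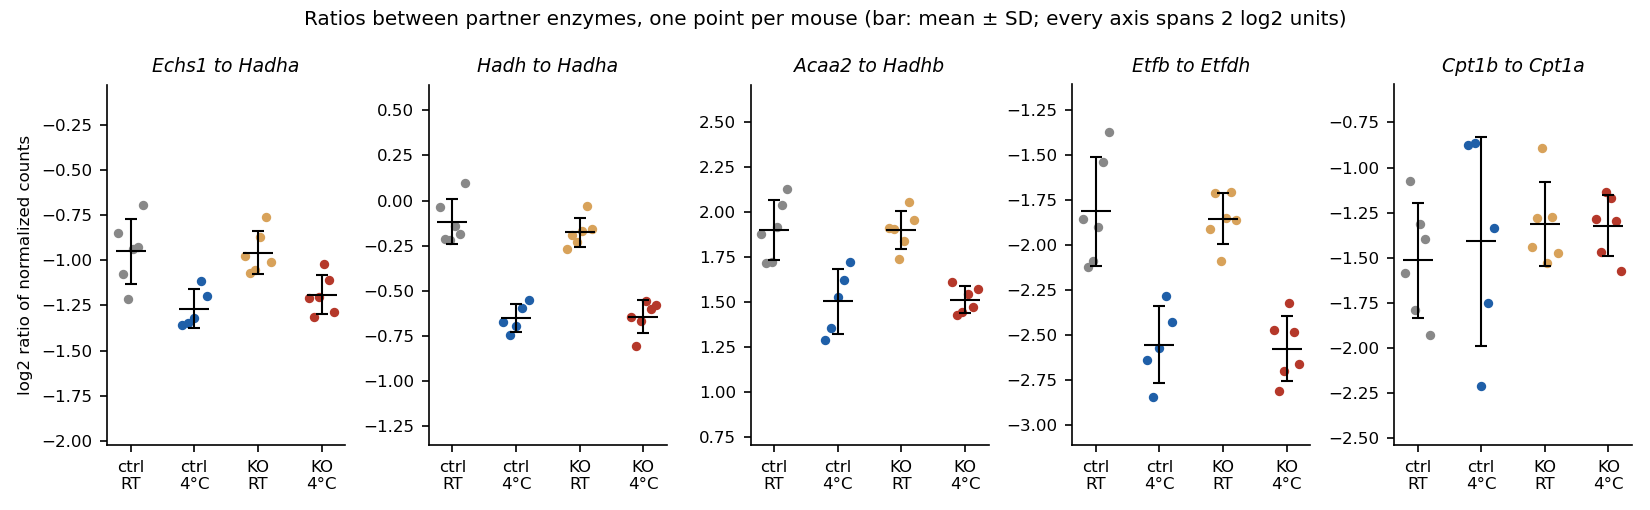
Log2 ratio of normalized counts (plus 1) of partner enzymes in each mouse (y axis, every panel spanning 2 log2 units), by group on the x axis (ctrl, control; KO, BAT-Mcu-KO), with mean and SD. Hadh to Hadha and Etfb to Etfdh do not overlap between RT and 4°C in either genotype, and Cpt1b to Cpt1a overlaps throughout.

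Of 8 genes of the carnitine shuttle and its control by malonyl-CoA, 1 rose and 3 fell in both genotypes, near the share over all genes (46% and 43.3% called in either direction). Malonyl-CoA, which blocks CPT1, is broken down by Mlycd, whose normalized count was 467 ± 89 (SD) at RT and 939 ± 151 at 4°C in control mice, and 441 ± 72 and 910 ± 88 in the knockout (log2 fold changes 1.01 and 1.05, adjusted p = 3.54e-07 and 9.48e-08). It is made by Acaca and Acacb, which fell (-0.88 and -0.93; -0.50 and -0.52). Crot, the peroxisomal octanoyltransferase, fell by 2.00 and by 1.63. The carnitine-acylcarnitine translocase Slc25a20 was at 0.08 and 0.11 and was not called.

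Among 7 measured genes that activate fatty acids, 2 rose (Acss1 at 0.52 and 0.41, Acsl4 at 0.68 and 0.43) and 2 fell (Acsf2 at -0.52 and -0.49, Acsf3 at -0.50 and -0.41) in control and knockout mice. The share called over all genes was 46% and 43.3%. Of 14 regulators, 4 rose and 4 fell in both genotypes, near the share over all genes (22.3% and 21.4% rose, 23.7% and 21.9% fell). Ppargc1a, the coactivator of oxidative genes, went from 573 ± 187 to 19302 ± 4383 in control mice and from 550 ± 189 to 10675 ± 2190 in knockout mice (log2 fold changes 5.10 and 4.33). Esrrb (3.09 and 3.12), Klf15 (1.71 and 1.57) and Pparg (0.51 and 0.44) also rose. Esrrb was near the floor at RT, with mean normalized counts of 4.7 and 5.6 in control and knockout mice, against 42.2 and 47.5 at 4°C. Ppara, the receptor known for driving this pathway in fasting (-0.58 and -0.83), Esrrg (-1.08 and -0.96), the corepressor Ncor1 (-0.30 and -0.49) and the deacetylase Sirt3 (-0.58 and -0.64) fell. Esrra was at 0.25 and 0.24 and was not called.

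Other genes known to respond to PPARs moved in both directions, and all 12 were called in control mice, 6 higher and 6 lower, and 8 in knockout mice, 6 higher and 2 lower. Over all genes, 46% and 43.3% were called in either direction. Those that rose included Fgf21 (5.29 and 2.74), Pdk4, a pyruvate dehydrogenase kinase (1.32 and 1.03), the droplet protein Plin2 (1.04 and 0.99) and the fatty acid translocase Cd36 (0.28 and 0.33). Fgf21 was near the floor at RT, with mean normalized counts of 2.3 and 2.7 in control and knockout mice, against 109 and 26.1 at 4°C. The fatty acid transporter Slc27a1 (-1.21 and -1.11) and Plin5 (-0.61 and -0.56) fell in both genotypes. Those called lower in control mice alone included Angptl4 (-0.60 and -0.22), Ucp3 (-0.83 and -0.22) and Vnn1 (-1.40 and -0.72), with no interaction called.

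Marker lists gave these values in the cold, for control and knockout mice in turn. They stand beside 22.3% and 21.4% of all genes that rose and 23.7% and 21.9% that fell. Of 14 brown adipocyte markers, 6 and 5 rose and 5 and 2 fell. Of 5 endothelial markers, 2 and 2 rose and 0 fell, and their summed count went from 2554 to 3851 over all RT mice to 4380 to 7479 over all 4C mice, with no overlap. The 2 that rose were Pecam1 (log2 fold changes 0.93 and 0.84) and Kdr (1.16 and 1.11). The others were not called, so the sum does not speak for all 5. Of 6 macrophage markers, 0 and 3 rose and 0 fell, with sums of 464.5 to 900.9 at RT and 583 to 1160 at 4°C. Of 14 muscle markers, 0 were called in any comparison by limma, and 1 had an unadjusted p under 0.05, by genotype at RT; up to 9 of the 14 were at 0 in a library, and among the libraries left without the 8 muscle-rich ones, which these markers chose, 11 were lower in the cold in control mice, given as a description. Of 5 white adipocyte markers, 1 and 1 rose and 2 and 3 fell, with sums of 638 to 1924 at RT and 382 to 830.1 at 4°C. Their part in the changes of the 10 enzymes was not tested.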

How the data were processed

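RNA from the BAT of 23 mice was made into Smart-seq2 libraries and read as paired ends by the authors. The authors aligned reads to mm10 with STAR 2.4.0j and GENCODE M7, counted uniquely mapped exonic reads with HTSeq irrespective of strand, kept genes that reached 8 reads in 6 or more samples, and deposited a signal, the reads divided by the DESeq2 size factor of the library. Reads from overlapping genes on opposite strands cannot be told apart. Dividing each value by the worth of 1 read gave whole reads for 100% of values (tolerance 0.01). The authors' table of fold changes and p-values was not used, and 0 columns of per-sample values were left out.

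Groups came from the sample labels. The main test was limma 3.58.1 (R 4.3.3) with an intensity trend on log2(normalized count + 1), with 4 group means over all 23 samples and Benjamini-Hochberg adjustment over 14651 genes. Fold changes are on this scale, which understates changes of low genes. The ratio of Cpt1b to Cpt1a was tested by exact permutation. Alternatives were pseudocounts of 0.5 and 10, a mean of at least 50, quantile and 75th percentile scaling, no trend, the 2 groups alone, a block for replicate number, edgeR 4.0.16 and DESeq2 1.42.0 on whole reads, and each sample left out. Runs without the 8 libraries with summed muscle markers over 10000, and 5 further ratios, given with no test, were added after values were seen. The procedure was also run on simulated counts. There genes varied independently and few were changed, unlike in these data, and no result here rests on that run. Intervals cover the spread between mice, and within-group pairs of libraries differed by more than counting noise (chi-square per degree of freedom 8.59 to 61.8).

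The 10 enzymes and all other lists were chosen with earlier results of these data known. From the other lists, the genes named are up to 4 with the smallest p (the larger of both genotypes) that rose and up to 4 that fell among those called in both genotypes, plus any called in only 1 genotype. The values of 1 gene that this rule names are not reported here. Exceptions, named after values were seen, are Acaa2, Echs1, Etfa, Slc25a20, Esrra, Chkb and Mcu. Positions, exon lengths and overlaps are from GENCODE M21 on GRCm38 and promoters from RefSeq GRCm38.p6. The symbols Acsl6 and Hoxc9, on the lists, matched no row of the table. Figures were drawn with Python 3.11.15 and matplotlib 3.10.9.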

Additional observations from a re-analysis of the deposited data

Results flagged for a closer look

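Among 40 sets of values (10 enzymes in 4 groups), 2 held a mouse far from the rest by Dixon's test, where chance alone gives about 1 in 20. Both were BAT-Mcu-KO 4C mouse 4: Acadvl at 12452, with the other 5 at 14540 to 15626, and Hadha at 18915, with the other 5 at 23010 to 24783. That mouse was also the lowest of its group for Cpt1a, Cpt1b, Cpt2, Acadm, Acads, Hadhb and Etfdh. Its summed muscle markers were 3467.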

How the results depend on the processing

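Cold gave 2 calls among the 10 enzymes in control mice and 2 in the knockout, and small changes of setting moved both. In control mice it was 1 with only the 2 groups compared and 0 without the 8 muscle-rich libraries, and 0 to 2 with each mouse left out. In the knockout it was 1 with 75th percentile scaling, 0 without the trend, 1 without the muscle-rich libraries and 0 to 2 with each mouse left out. It stayed at 2 in both with edgeR, DESeq2, both pseudocounts, quantile scaling and the filter on the mean. By genotype and in the interaction 0 of 10 were called under every alternative run. Counting each alternative and both ends of the leave-one-out range, 53 fold changes of single enzymes that were called on neither side changed sign, and no called one did. Among 60 other pathway genes, 41 and 34 were called, where 46% and 43.3% of all genes were. With each mouse left out these counts were 38 to 44 and 32 to 35. In control mice without the muscle-rich libraries 27 were called (13 lower, against 28), where 15.3% of all genes rose and 16.3% fell.

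The log2 ratio of Cpt1b to Cpt1a, which was not called anywhere, ran with each mouse left out from -0.029 to 0.31 by cold in control mice, from -0.050 to 0.077 by cold in the knockout, from 0.12 to 0.29 by genotype at RT and from -0.11 to 0.22 by genotype at 4°C.

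Same-numbered mice did not deviate together in every pair (lowest r between groups -0.594 to 0.00422), so the numbers were not taken as pairs. Mean r ran from -0.202 (control 4C and BAT-Mcu-KO RT) to 0.21 (control 4C and BAT-Mcu-KO 4C). In the latter 4 of 5 pairs were above 0.1, and the highest r of all was 0.499 (control RT and BAT-Mcu-KO 4C). With a replicate block the calls were 2, 2, 0, 0 and 0 of the 10 enzymes (by cold in each genotype, control first, by genotype at RT and at 4°C, and in the interaction) and 41 and 35 of the other pathway genes, and the paired ratio of Cpt1b to Cpt1a differed by 0.02, -0.01, 0.20 and 0.14 in the first 4 of these. Over all genes edgeR on the recovered reads called 6780 and 6501 by cold, and limma 6735 and 6349. Depth limits Cpt1a and Cpt1b, read at 61 to 236 and 32 to 96 reads a library, more than the other 8.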
